A study of Mus musculus with 4 samples.

Results

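The genes described here are 9 leukocyte adhesion genes of the 25655 genes in the deposited tables, found by their symbols: the integrin α-subunit genes *Itgam*, *Itgax*, *Itgal*, *Itga4* and *Itgav*, the β-subunit genes *Itgb2* and *Itgb1*, the selectin ligand gene *Selplg* and the integrin ligand gene *Icam1*. The set was chosen by name and function, with earlier results of these data known, and no measured value entered its rule. All 9 had a mean level over 10 TPM, a transcript level corrected for length and sequencing depth, across the libraries, as did 6523 genes in all.

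The study profiled neutrophils from the mouse heart 3 days after myocardial infarction and reperfusion (MI/R), a model in which a coronary artery is closed and reopened. Cells positive for CD45.2, CD11b and Ly6G were sorted from wild-type (WT) mice and from mice lacking the inhibitory receptor CD300a (*Cd300a-/-*), both adult males on the C57BL/6 background, and were split by surface SiglecF. The labels call the SiglecF fractions positive and negative, and the names SiglecF hi and SiglecF lo are used here. Each genotype and fraction gave 1 library made from the pooled cells of 8 mice, so that 4 libraries were compared without replicates, and no difference between groups was tested. The 95% intervals in brackets come from the counts alone and cover counting error only. Gene counts of the SiglecF lo libraries totalled 9631901 for WT and 10988619 for *Cd300a-/-* mice, and those of the SiglecF hi libraries 19278243 for WT and 17632989 for *Cd300a-/-* mice, and the counting error of a value follows the counts of its own gene. Values are listed for the libraries in this order throughout.

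Integrins are αβ heterodimers, and the β2 subunit, which is restricted to leukocytes, pairs with CD11a, CD11b, CD11c and CD11d to form the receptors that hold leukocytes to ICAM-1, complement fragments and fibrinogen. Neutrophils first roll on inflamed endothelium through selectins and their glycoprotein ligands, then arrest and crawl through β2 integrins, while β1 and αv integrins bind matrix proteins and VCAM-1 in the tissue. Neutrophils are known to gain ICAM-1 after activation or transmigration.

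The labels were checked first. *Cd300a* had 127, 1.06, 163 and 0.740 TPM, with 28 and 27 counts left in the *Cd300a-/-* SiglecF lo and SiglecF hi libraries. *Siglecf* had 11.3, 15.3, 354 and 405 TPM. Both genes thus followed the labelled genotype and fraction. *Ptprc*, which encodes CD45, was at 608, 683, 646 and 709.96 TPM. *Ly6g*, whose product was used in the sort, had 330.4, 889, 11.1 and 41.9 TPM and was thus low in both SiglecF hi libraries.

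Transcripts used as macrophage markers were present in these sorted neutrophils as well. All 12 genes of the macrophage list had a mean TPM over 10, their summed level was 5614, 4893, 15721 and 14762 TPM, the most abundant was *Apoe* with 2637, 2109, 8313 and 8107 TPM, and none was at 0 counts. The 11 neutrophil markers summed to 156714, 208336, 27562 and 32999.8 TPM, with *S100a9* alone at 76228, 89228, 13719 and 15355 TPM. The part of these differences in the adhesion gene values was not tested. In bulk libraries, fewer cells of a type and less RNA per cell cannot be told apart.

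A log2 ratio is the log2 of the ratio of (TPM + 1) between libraries, and a gene is said to rise or fall when it passed 0.5 or −0.5. Across the 6523 genes the median log2 ratio of *Cd300a-/-* to WT was −0.02 in SiglecF lo and 0.04 in SiglecF hi cells. The median of SiglecF hi to SiglecF lo was 0.53 in WT and 0.61 in *Cd300a-/-* cells. Most genes thus had a higher TPM in SiglecF hi cells, and values between fractions are also given relative to these medians ("centred").

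The order of the 9 levels differed between the fractions. In both SiglecF lo libraries the order from the highest TPM was *Selplg*, *Itgb2*, *Itgam*, *Itgal*, *Icam1*, *Itgb1*, *Itgax*, *Itga4* and *Itgav*, and no neighbours had overlapping intervals. In WT SiglecF hi cells *Itgb2* at 738 TPM, *Selplg* at 718 TPM and *Icam1* at 716 TPM led, and neighbours among these were not separated beyond counting error. *Cd300a-/-* SiglecF hi cells had *Icam1* first at 955 TPM, followed by *Itgb2* and *Selplg*. In both SiglecF hi libraries *Itgam*, *Itgb1*, *Itgax*, *Itgal*, *Itga4* and *Itgav* came next with separate intervals. *Itga4* and *Itgav* were the lowest of the 9 in every library.

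**Figure D1:**
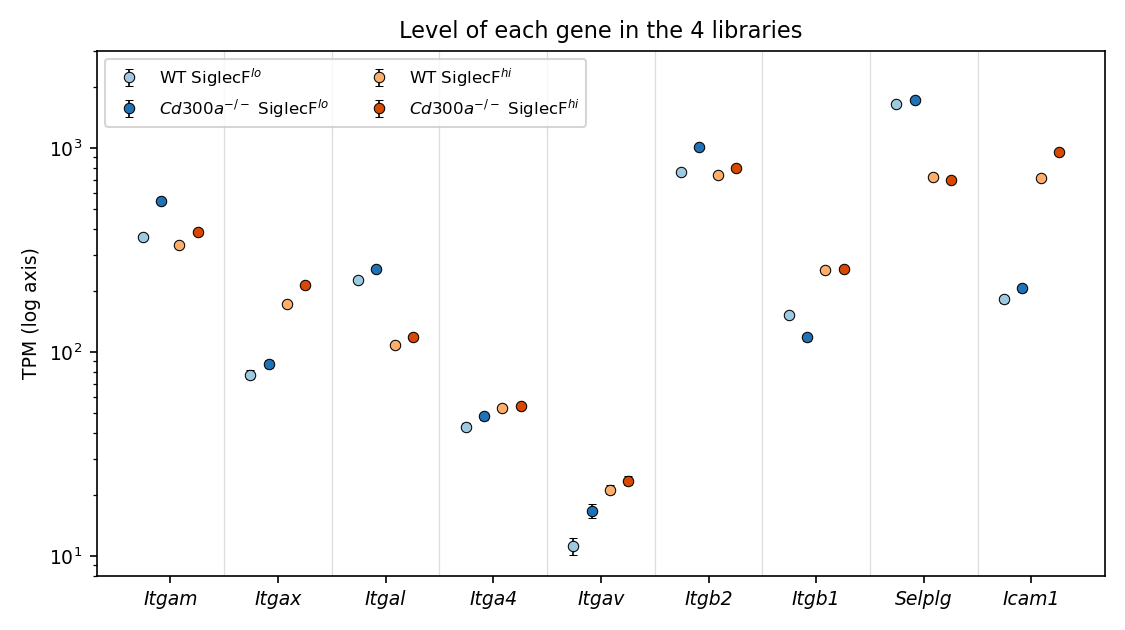
TPM on a log axis of the 9 adhesion genes in the 4 libraries, with 1 point per library and bars for the 95% counting interval, which are mostly smaller than the points. *Selplg* and *Itgal* lie higher in both SiglecF lo libraries, *Icam1*, *Itgax* and *Itgb1* lie higher in both SiglecF hi libraries, and *Itga4* stays between 43.1 and 54.2 TPM.

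The comparison between the fractions of WT mice shows how SiglecF hi neutrophils differ from SiglecF lo neutrophils of the same genotype. There, 4 of the 9 genes rose and 2 fell, beside 51.9% and 7.47% of the 6523 genes. The risers were *Icam1*, *Itgax*, *Itgav* and *Itgb1*, and the genes that fell were *Selplg* and *Itgal*. The median of the 9 log2 ratios was 0.29. Relative to the shift of all genes the direction of that median turned, to −0.24, with 2 genes higher past 0.5 (*Icam1* and *Itgax*) and 4 lower (*Selplg*, *Itgal*, *Itgam* and *Itgb2*), beside 19.3% and 20.9% of all genes.

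In *Cd300a-/-* mice, the same comparison gave 3 genes that rose (*Icam1*, *Itgax* and *Itgb1*) and 3 that fell (*Selplg*, *Itgal* and *Itgam*), beside 56.6% and 7.97% of all genes. The median log2 ratio of the 9 was 0.16. Centring turned this median to −0.45, and the 2 higher and 4 lower genes were then the ones named for WT mice, beside 21.2% and 23.6% of all genes. The falls of *Selplg* and *Itgal* and the rises of *Icam1* and *Itgax* thus held in both genotypes with and without centring, and with TMM-scaled counts as well.

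Between genotypes in SiglecF lo cells, which is the comparison on the effect of CD300a loss in that fraction, 2 of the 9 genes rose (*Itgam* and *Itgav*) and none fell, beside 16.4% and 19.9% of all genes. The median log2 ratio of the 9 was 0.18, and 8 of the 9 were above 0, beside 3185 of all 6523 genes. In SiglecF hi cells none of the 9 passed 0.5 in either direction, beside 3.31% of all genes that rose and 3.46% that fell. Their median there was 0.12, again with 8 of 9 above 0, beside 3682 of all 6523 genes, or 6 of 9 after centring.

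**Figure D2:**
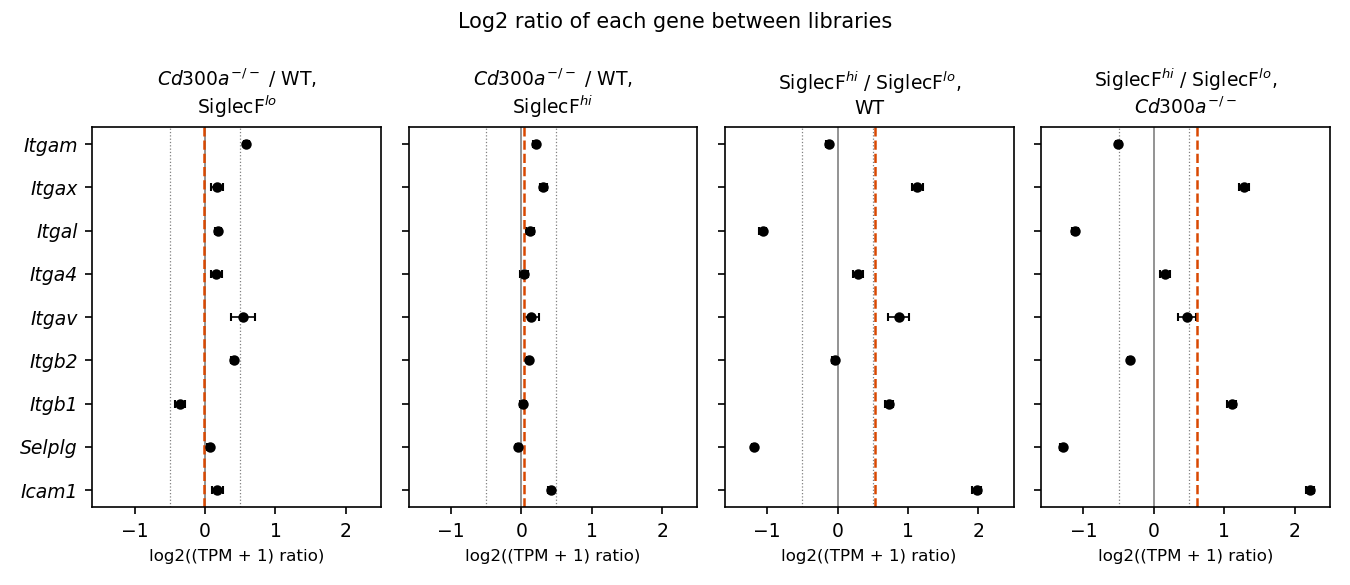
Log2((TPM + 1) ratio) of the 9 adhesion genes in the 4 comparisons, with points for the ratio and bars for its 95% counting interval. Dotted lines mark −0.5 and 0.5 and the dashed line marks the median of 6523 genes, which is 0.53 and 0.61 in the comparisons between fractions. *Icam1* reaches 1.98 in WT and 2.22 in *Cd300a-/-* cells, and *Itgam* and *Itgav* are right of 0.5 between genotypes in SiglecF lo cells. *Itga4* in both genotypes and *Itgav* in *Cd300a-/-* cells change sign between fractions when measured from the dashed line.

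*Itgam* encodes CD11b, the α subunit of Mac-1, and CD11b was also used to sort the cells. It had 9337, 15459, 14632 and 15116 counts, or 367, 550.4, 337 and 388 TPM. The *Cd300a-/-* SiglecF lo library was the highest, and the other libraries lay between 337 and 388 TPM. *Itgam* rose with a log2 ratio of 0.58 (0.55 to 0.62) between genotypes in SiglecF lo cells, and its ratio in SiglecF hi cells was 0.21 (0.17 to 0.24). Of the 11 neutrophil markers 6 rose and none fell between genotypes in each fraction, where 16.4% and 3.31% of all genes rose, the list median being 0.65 for the SiglecF lo and 1.10 for the SiglecF hi pair and *Ly6g* at 1.43 and 1.82, and their part in the genotype ratios of *Itgam*, *Itgb2* and the genes of the integrin machinery was not tested. The difference between the genotype ratios of *Itgam*, SiglecF hi minus SiglecF lo, was −0.38 (−0.43 to −0.33) by counting error alone. Between fractions the ratio was −0.12 in WT and −0.50 in *Cd300a-/-* cells, and −0.65 and −1.12 after centring. The genes with the nearest profile over the 4 libraries, by Euclidean distance of centred log2(TPM + 1), were *Gsap* at a distance of 0.027 and *Dhrs1* at 0.050. Here and below, nearest profiles were picked from 6523 genes over 4 libraries without a reference distance. They describe likeness only and do not show shared regulation. *Itgam* lies on chromosome 7 from 127661812 to 127717663 on the plus strand (GRCm39, the build in the submitters' processing notes), and the predicted gene *Gm49368* overlaps it on the same strand with 595, 590, 502 and 408 counts, so reads of the overlap are uncertain.

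*Itgax* encodes CD11c, the α subunit of the complement receptor CD11c/CD18. Its level was 77.5 (73.9 to 81.3), 87.2 (83.6 to 91.0), 171 (167 to 175) and 213 (208 to 218) TPM. Both SiglecF hi libraries were above both SiglecF lo libraries, and within each fraction the *Cd300a-/-* library was the higher. *Itgax* rose between fractions by 1.13 (1.06 to 1.21) in WT and 1.28 (1.21 to 1.35) in *Cd300a-/-* cells, or 0.61 and 0.67 after centring. Its genotype ratio was 0.17 (0.08 to 0.26) in SiglecF lo and 0.31 (0.27 to 0.36) in SiglecF hi cells. *Slc35a3* (distance 0.039) and *Mrpl40* (0.066) had the nearest profiles. The gene starts 11055 bases after the end of *Itgam* on chromosome 7, yet the neighbours moved apart between the fractions.

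*Itgal* encodes CD11a, the α subunit of LFA-1, which binds ICAM-1. It had 227 (222 to 232), 257 (251 to 262), 108 (105 to 111) and 118 (115 to 121) TPM. Both SiglecF lo libraries were the higher, opposite to *Itgax*. *Itgal* fell between fractions with ratios of −1.06 in WT and −1.12 in *Cd300a-/-* cells, or −1.59 and −1.73 after centring, which placed it 177th and 212th from the lowest of the 6523 genes. The genotype ratio was 0.18 in SiglecF lo and 0.12 in SiglecF hi cells. *Tirap* (distance 0.069) and *Sephs2* (0.071) followed it most closely.

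The α subunits that pair with β2 can be compared within a library, where the shift between libraries has no part. Of the summed TPM of *Itgam*, *Itgal*, *Itgax* and *Itgad*, *Itgam* made up 54.7% (53.9 to 55.4), 61.6% (61.0 to 62.1), 54.6% (54.0 to 55.2) and 53.8% (53.2 to 54.4). *Itgal* made up 33.8% (33.1 to 34.4), 28.7% (28.2 to 29.2), 17.5% (17.1 to 17.9) and 16.3% (15.9 to 16.7). *Itgax* made up 11.6% (11.05 to 12.1), 9.75% (9.36 to 10.1), 27.8% (27.2 to 28.3) and 29.5% (29.0 to 30.1). In WT mice the share of *Itgam* was thus the same in both fractions within counting error, while *Itgal* and *Itgax* traded places; in counts not corrected for length *Itgam* made up 50.5% and 53.7% in the same libraries. The level of *Itgax* relative to *Itgal* was 0.342 (0.325 to 0.361), 0.340 (0.324 to 0.356), 1.58 (1.53 to 1.64) and 1.81 (1.75 to 1.87). The genotypes did not differ beyond counting error in SiglecF lo cells by this ratio, and in SiglecF hi cells the *Cd300a-/-* library was higher. *Itgad*, the gene of CD11d, had 0, 0, 37 and 87 counts, and 0 counts allow up to 0.0162% and 0.0112% of the counts of the α genes in WT and *Cd300a-/-* SiglecF lo cells.

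**Figure D3:**
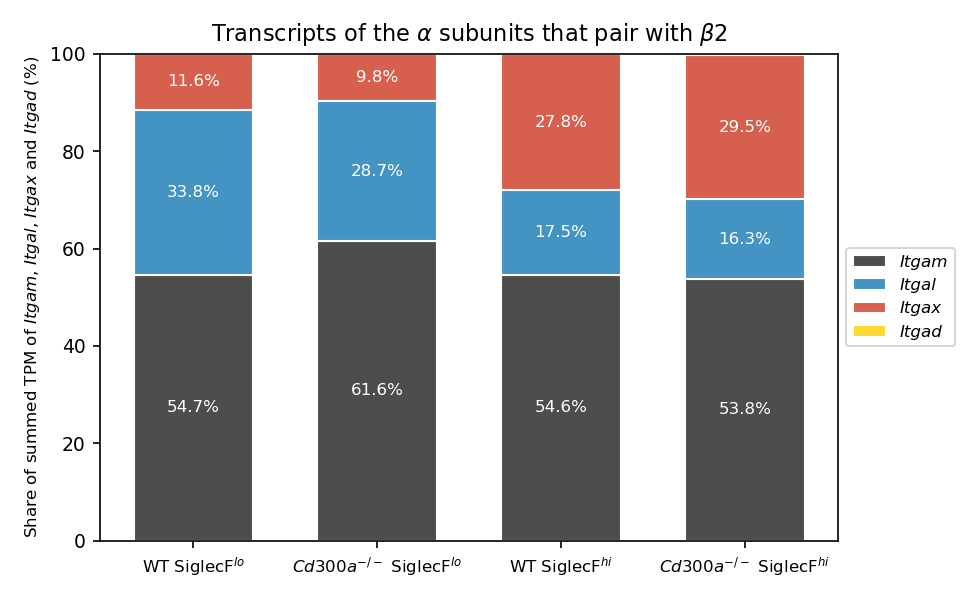
Share of the summed TPM of *Itgam*, *Itgal*, *Itgax* and *Itgad* in percent, with 1 stacked bar per library. *Itgam* holds between 53.8% and 61.6% of each bar, *Itgal* falls from 33.8% in WT SiglecF lo to 17.5% in WT SiglecF hi cells and *Itgax* goes from 11.6% to 27.8%, while *Itgad* is at most 0.340%.

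*Itgb2* encodes CD18, the β2 subunit itself. Its counts were 11909, 17426, 19763 and 19151, and its level was 759 (746 to 773), 1007 (992 to 1022), 738 (728 to 748) and 799 (788 to 810) TPM. As with *Itgam*, the *Cd300a-/-* SiglecF lo library stood above the others. The genotype ratio of 0.41 (0.37 to 0.44) in SiglecF lo cells did not pass 0.5, and that in SiglecF hi cells was 0.11 (0.09 to 0.14). Between fractions *Itgb2* had −0.04 in WT and −0.33 in *Cd300a-/-* cells, which did not pass −0.5, whereas the centred values (−0.57 and −0.95) and those from TMM-scaled counts (−0.58 and −0.92) did. The summed TPM of the α partners was 0.883, 0.888, 0.836 and 0.904 of the *Itgb2* level, so that it stayed between 0.836 and 0.904 in the 4 libraries. *Stat6* (distance 0.038) and *Inpp5a* (0.051) had the profiles nearest to *Itgb2*. *Itgb2l*, a neutrophil gene related in sequence to *Itgb2*, had 13.9, 68.8, 5.62 and 15.8 TPM and rose between genotypes in both fractions, by 2.23 (2.03 to 2.43) and 1.35 (1.10 to 1.59). It fell between fractions in both genotypes, with and without centring, where 7.47% and 7.97% of all genes fell without it.

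*Itgb1* encodes the β1 subunit, which pairs with α4, α5, α6 and αv among others. It was at 151 (146 to 157), 118 (114 to 123), 251 (246 to 257) and 256 (250.1 to 261) TPM. The SiglecF hi libraries were higher and did not differ from each other beyond counting error, with a genotype ratio of 0.02 (−0.02 to 0.07). In SiglecF lo cells the genotype ratio was −0.35 (−0.43 to −0.28), which is the sole member value below 0 in that comparison and lies opposite to *Itgb2*. *Itgb1* rose between fractions by 0.73 (0.67 to 0.79) in WT and 1.11 (1.04 to 1.17) in *Cd300a-/-* cells, whereas the centred values were 0.20 and 0.49 and did not pass, and TMM-scaled counts gave 0.19 and 0.53. The level of *Itgb2* relative to *Itgb1* was 5.02 (4.82 to 5.22), 8.52 (8.18 to 8.88), 2.93 (2.86 to 3.01) and 3.12 (3.04 to 3.21), and so was highest in *Cd300a-/-* SiglecF lo cells. *Nubp1* (distance 0.021) and *Ier3ip1* (0.024) had the nearest profiles.

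*Itga4* encodes the α4 subunit, which with β1 forms the VCAM-1 receptor VLA-4 and with β7 binds MAdCAM-1. Its level of 43.1 (41.3 to 45.0), 48.3 (46.5 to 50.2), 52.8 (51.3 to 54.4) and 54.2 (52.5 to 55.8) TPM varied least among the 9 genes by the ratio of the highest to the lowest library. No comparison passed 0.5. Between fractions the ratios of 0.29 in WT and 0.16 in *Cd300a-/-* cells turned to −0.24 and −0.45 after centring, so no direction can be given. *Slc12a9* (distance 0.028) and *Tns1* (0.029) were closest in profile. The antisense gene *Cerkl* overlaps the end of *Itga4* but had at most 9 counts in a library.

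*Itgav* encodes the αv subunit, which pairs with β1, β3, β5, β6 and β8 and binds vitronectin, fibronectin and osteopontin. It rested on the fewest counts, 404, 665, 1309 and 1297, and its level was 11.1 (10.1 to 12.3), 16.6 (15.4 to 17.9), 21.1 (20.0 to 22.3) and 23.4 (22.2 to 24.7) TPM. WT SiglecF lo cells were lowest. *Itgav* rose between genotypes in SiglecF lo cells by 0.54 (0.37 to 0.70), an interval that reaches below 0.5, and had 0.14 (0.03 to 0.25) in SiglecF hi cells. Between fractions it rose by 0.87 (0.72 to 1.02) in WT cells but not by the centred value of 0.34, and in *Cd300a-/-* cells the ratio of 0.47 turned to −0.14 after centring. *Smurf2* (distance 0.034) and *Gtf2h1* (0.038) had the nearest profiles.

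*Selplg* encodes PSGL-1, the main selectin ligand of neutrophils. It had 17512, 20190, 13125 and 11397 counts, or 1637 (1613 to 1661), 1711 (1687 to 1735), 718 (706 to 731) and 697 (684 to 709.8) TPM. The SiglecF lo libraries were both above the SiglecF hi libraries. *Selplg* fell between fractions with −1.19 (−1.22 to −1.15) in WT and −1.29 (−1.33 to −1.26) in *Cd300a-/-* cells, or −1.71 and −1.91 after centring, and was 153rd and 170th from the lowest of the 6523 genes. Genotype ratios were 0.06 (0.03 to 0.09) in SiglecF lo and −0.04 (−0.08 to −0.01) in SiglecF hi cells. The nearest profile was that of *Cxcr2* (distance 0.067), the neutrophil chemokine receptor gene, with 876, 954, 376 and 372 TPM, followed by *Taldo1* (0.081). *Cxcr2* is among the 11 neutrophil markers, of which 9 fell in WT and 10 in *Cd300a-/-* cells between the fractions, beside 7.47% and 7.97% of all genes, and their part in the fall of *Selplg* and *Itgal* was not tested.

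*Icam1* encodes ICAM-1, a ligand of LFA-1 and Mac-1, and had the largest ratios between fractions among the 9 genes on uncentred TPM, whereas after centring or TMM scaling those of *Selplg* were larger in size, and those of *Itgal* too. It was at 181 (174 to 189), 205 (197 to 212), 716 (705 to 727) and 955 (942 to 969) TPM. Both SiglecF hi libraries were far above the SiglecF lo libraries, and the *Cd300a-/-* library was the higher in each fraction. *Icam1* rose between fractions by 1.98 (1.92 to 2.04) in WT and 2.22 (2.16 to 2.27) in *Cd300a-/-* cells, or 1.45 and 1.60 after centring, which placed it 110th and 122nd from the highest of the 6523 genes. Its genotype ratio was 0.18 (0.10 to 0.25) in SiglecF lo and 0.42 (0.39 to 0.45) in SiglecF hi cells, where it did not pass 0.5 but was 380th from the highest. Relative to *Selplg* in the same library, *Icam1* stood at 0.111 (0.106 to 0.115), 0.120 (0.115 to 0.124), 0.997 (0.974 to 1.02) and 1.37 (1.34 to 1.40), and relative to its receptor gene *Itgal* at 0.799, 0.798, 6.62 and 8.11. *Ptgs1* (distance 0.153) and *Gpr34* (0.157) were nearest to *Icam1*, farther than the nearest genes of the other 8.

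Beside the rises of *Icam1*, *Itgax* and *Itgb1* in SiglecF hi cells, 9 of the 12 macrophage markers rose and 1 fell in WT cells and 10 rose in *Cd300a-/-* cells, or 8 and 6 rose and 1 fell in each after centring, where 51.9% and 56.6% of all genes rose, or 19.3% and 21.2% after centring. The marker that fell was *Lyve1*, with −0.53 in WT cells. Of the 7 fibroblast markers 6 had a mean TPM over 10, and 6 of these rose in WT and 3 in *Cd300a-/-* cells, or 4 and 0 after centring, when 1 fell in *Cd300a-/-* cells, with sums of 964, 979.8, 2088 and 1475 TPM and *Dcn* the most abundant. The part of these transcripts in the rises was not tested. Among other cell types, the 5 monocyte markers (*Nr4a1* the most abundant by the mean of the libraries) summed to 1713, 1489.9, 1776 and 1966 TPM and the 9 dendritic cell markers (*Cd74*) to 2696, 2859, 2408 and 2487 TPM. Between fractions 2 of the monocyte markers rose in WT and 3 in *Cd300a-/-* cells, or 0 and 1 after centring. In each genotype 1 fell, or 2 after centring. *Ly6c2* fell in both, with −1.48 and −1.64, beside 7.47% and 7.97% of all genes that fell. The 6 platelet markers summed to 354, 244, 879 and 643 TPM, nearly all from *Pf4*, with *Gp1bb* at 0 counts in all libraries. Eosinophil markers summed to 173, 87.9, 117 and 119 TPM, nearly all from *Ear2*, and *Epx* was at 0 counts in every library. The 10 T and NK cell markers summed to at most 12.5 TPM with *Trac* at 0 counts, the 5 B cell markers to at most 14.4 TPM, and the 6 cardiomyocyte markers to at most 62.9 TPM. A list of 7 genes tied to neutrophil aging, which holds *Icam1*, *Itgam* and *Itga4* themselves, had a median log2 ratio between fractions of 0.11 in WT and 0.16 in *Cd300a-/-* cells, which turned to −0.42 and −0.45 after centring, and *Cxcr4* as its most abundant gene. The medians of this list in *Cd300a-/-* cells are the values of *Itga4* and so add nothing to that gene.

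Selectin genes of other cells and the enzymes that build selectin ligands were set beside *Selplg*. *Selp*, the gene of P-selectin, had 20.9, 14.6, 4.24 and 7.05 TPM and fell between fractions in both genotypes. The mean TPM of *Sele* was under 10, with 21.7, 3.33, 2.31 and 4.72 TPM, so that WT SiglecF lo cells were highest. The part of endothelial transcripts in the values of both genes was not tested. Between genotypes *Selp* had −0.49 in SiglecF lo cells. It rose by 0.62 in SiglecF hi cells, or 0.58 after centring, beside 3.31% of all genes that rose. Of 11 glycosylation and sulfation genes 9 had a mean TPM over 10; 4 rose and 1 fell between fractions in WT cells and 5 rose in *Cd300a-/-* cells, or 1 rose and 1 fell and 4 rose and 4 fell after centring. Of all genes 51.9% rose and 7.47% fell in WT and 56.6% and 7.97% in *Cd300a-/-* cells, or 19.3% and 20.9% and 21.2% and 23.6% after centring. *B4galt1*, a galactosyltransferase gene, rose by 1.42 and 1.80, and by 0.90 and 1.19 after centring. Between genotypes in SiglecF lo cells *Tpst2*, a tyrosylprotein sulfotransferase gene, rose by 0.51 (0.38 to 0.65), while *Tpst1* fell with −0.87 (−1.22 to −0.51) and *C1galt1c1* with −0.65, and none of the 9 passed in SiglecF hi cells; of all genes 16.4% rose and 19.9% fell in SiglecF lo and 3.31% and 3.46% in SiglecF hi cells.

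Of the other integrin genes, 2 of 13 α and 3 of 7 β genes had a mean TPM over 10. *Itga5*, the gene of the fibronectin receptor subunit α5, had 49.3, 63.7, 89.0 and 92.9 TPM and *Itga6*, a laminin receptor gene, 9.75, 9.45, 31.7 and 26.1 TPM. Both rose between fractions, as did 51.9% of all genes in WT and 56.6% in *Cd300a-/-* cells. Only *Itga6* passed after centring, with 1.08 in WT and 0.76 in *Cd300a-/-* cells, beside 19.3% and 21.2% of all genes. *Itgb5*, a partner gene of *Itgav*, had 86.8, 75.6, 189 and 151 TPM and rose by 1.11 and 0.99 between fractions, or 0.58 and 0.38 after centring. *Itgb7* had 35.9, 36.4, 30.6 and 39.8 TPM and fell between fractions only in WT cells and only after centring. *Itgb2l*, described with *Itgb2*, fell between fractions in both genotypes. The summed level of *Itga4*, *Itga5*, *Itga6* and *Itgav* relative to *Itgb1* was 0.749 (0.713 to 0.786), 1.17 (1.11 to 1.23), 0.774 (0.752 to 0.797) and 0.769 (0.746 to 0.792), so the *Cd300a-/-* SiglecF lo library differed from the others.

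The machinery that couples integrins to actin was described beside *Itgam* and *Itgb2* in SiglecF lo cells. Of 16 integrin activation genes 15 had a mean TPM over 10, and 3 rose between genotypes in SiglecF lo cells and none fell, beside 16.4% and 19.9% of all genes that rose and fell. In SiglecF hi cells none of the 15 passed, beside 3.31% and 3.46% of all genes. *Tln1*, the talin gene, had 162, 244, 189 and 198 TPM, with genotype ratios of 0.58 (0.54 to 0.63) and 0.06 (0.03 to 0.10), and *Cyth1*, the gene of the β2 tail binding protein cytohesin-1, had 0.63 and 0.30. *Rap1b*, the most abundant of the list, was at 836, 860.3, 772 and 815 TPM. Of 12 focal adhesion genes 11 had a mean TPM over 10, and 4 of these rose between genotypes in SiglecF lo cells and none fell, beside the same 16.4% and 19.9%, and 1 (*Parvb*) fell in SiglecF hi cells. *Flna*, the gene of filamin A, which binds β integrin tails, had 204, 357, 184 and 196 TPM and rose by 0.80 (0.76 to 0.84) in SiglecF lo cells, and *Actn1* rose by 0.62. The focal adhesion list had a median of 0.26 in SiglecF lo cells beside −0.02 for all genes, and its most abundant gene *Vasp* had 634, 811, 604 and 724 TPM. Between fractions the centred medians of the activation and focal adhesion lists were −0.52 and −0.40 in WT and −0.58 and −0.78 in *Cd300a-/-* cells, whereas the medians before centring were 0.0028 and 0.13 in WT and 0.03 and −0.16 in *Cd300a-/-* cells, so their size and mostly their direction come from the centring. *Rasgrp2*, the gene of a Rap1 activator, had 42.6, 39.1, 10.5 and 14.3 TPM and fell between fractions with −1.92 and −1.39, and *Zyx*, the zyxin gene, fell with −0.97 and −1.33; both fell after centring as well. *Cyth1* fell as well, with −0.63 in WT and −0.96 in *Cd300a-/-* cells. *Vav3* rose in WT cells by 0.96 and *Parvb* rose by 1.37 and 1.08 in WT and *Cd300a-/-* cells, with centred values of 0.44 for *Vav3* in WT cells and 0.85 and 0.46 for *Parvb*.

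Adhesion genes of the immunoglobulin family and of cell junctions moved otherwise. Of 13 immunoglobulin family and junction genes 8 had a mean TPM over 10, and 5 of these fell between genotypes in SiglecF lo cells, beside 19.9% of all genes, led by *Esam* with 26.9, 6.58, 9.91 and 15.4 TPM and *Pecam1* with 57.5, 15.6, 23.2 and 30.4 TPM. WT SiglecF lo cells were the highest for both. The 8 endothelial markers summed to 149, 60.7, 80.5 and 97.5 TPM, and 5 of the 6 with a mean TPM over 10 fell in the same comparison, the most abundant by the mean of the 4 libraries being *Cdh5*. The endothelial list had medians of −1.26 and 0.30 between genotypes in SiglecF lo and SiglecF hi cells and −0.77 and 0.67 between fractions in WT and *Cd300a-/-* cells, and the immunoglobulin family and junction list −0.56, 0.18, −0.46 and 0.54 in the same order. After centring the fraction medians were −1.30 and 0.06 for the endothelial and −0.98 and −0.08 for the other list, so the rises in *Cd300a-/-* cells were near the shift of all genes. The part of endothelial transcripts in this list and in *Icam1* was not tested. *Mcam* fell between fractions with −1.81 and −1.10, as it did after centring. *Cd47*, the most abundant of the list, was at 71.6, 75.4, 91.95 and 101 TPM. Of the 4 other selectin ligand genes *Cd24a* was the most abundant with 995, 1013, 1031 and 1243 TPM, and *Podxl* rose between genotypes in SiglecF hi cells by 0.95 (0.81 to 1.10). *Podxl* fell between fractions in WT cells with −1.32, its ratio in *Cd300a-/-* cells being 0.11. After centring *Podxl* and *Cd44* fell in both genotypes and none of the 4 rose, beside 20.9% and 23.6% of all genes that fell. *Cd44* had 515, 602, 447 and 559 TPM, and *Glg1* rose between fractions by 0.93 and 0.58, with centred values of 0.40 and −0.04. Of 9 matrix ligand genes 5 had a mean TPM over 10, and between genotypes 1 of these rose and 2 fell in SiglecF lo cells, beside 16.4% and 19.9% of all genes, and 1 fell in SiglecF hi cells, beside 3.46%. *Spp1*, the gene of the αv integrin ligand osteopontin, had 1349, 884, 4111 and 2815 TPM and fell between genotypes in both fractions, with −0.61 and −0.55. *Mfge8* fell in SiglecF lo cells with −0.68, and *Thbs1*, the thrombospondin-1 gene, went the other way with a rise of 0.59 there, and its ratio in SiglecF hi cells was 0.17. Between fractions 3 of these 5 genes rose in WT and 2 in *Cd300a-/-* cells and none fell, beside 51.9% and 56.6% of all genes that rose. After centring 1 rose in each genotype, beside 19.3% and 21.2% of all genes, and 1 (*Thbs1*) fell in *Cd300a-/-* cells, beside 23.6%. *Spp1* rose between fractions by 1.61 and 1.67, or 1.08 and 1.06 after centring. *Mfge8* rose in *Cd300a-/-* cells by 0.95 and *Ccn1* rose in WT cells by 0.67, and their centred values of 0.34 and 0.14 did not pass 0.5. Between genotypes in SiglecF hi cells 3 of 6 fibroblast markers over 10 TPM fell, beside 3.46% of all genes, and none rose. In SiglecF lo cells 1 rose and none fell, beside 16.4% and 19.9%. Of the 12 macrophage markers 2 rose and 2 fell in SiglecF lo cells, and 2 rose in SiglecF hi cells, where 3.31% of all genes rose. The part of these transcripts in the matrix ligand values was not tested.

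Promoter sequences were taken from RefSeq (GRCm38.p6). In the set of windows used here 1 was found for 6 of the 9 genes each, and none was found for *Itgal*, *Itgb2* and *Selplg*. The 250 bases before the gene start were searched on both strands for GGAANTTCC, an NF-κB-type motif, TTCNNNGAA, a STAT-type motif, and GAGGAA, a PU.1-type motif. Of 32851 windows of this length 0.813%, 7.02% and 23.3% held a match. *Icam1*, the gene with the largest rise between fractions among the 9, and the neighbours *Itgam* and *Itgax*, which moved apart, are shown 5′ to 3′ with matches in capitals. The windows are chr9:21015690-21015939 for *Icam1*, chr7:128062390-128062639 for *Itgam* and chr7:128129300-128129549 for *Itgax*, all on the plus strand.
Icam1: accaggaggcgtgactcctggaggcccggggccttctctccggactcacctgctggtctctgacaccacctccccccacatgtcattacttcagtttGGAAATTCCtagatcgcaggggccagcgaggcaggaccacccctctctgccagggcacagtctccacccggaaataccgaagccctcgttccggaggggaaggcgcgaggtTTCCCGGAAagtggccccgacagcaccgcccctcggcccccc
Itgam: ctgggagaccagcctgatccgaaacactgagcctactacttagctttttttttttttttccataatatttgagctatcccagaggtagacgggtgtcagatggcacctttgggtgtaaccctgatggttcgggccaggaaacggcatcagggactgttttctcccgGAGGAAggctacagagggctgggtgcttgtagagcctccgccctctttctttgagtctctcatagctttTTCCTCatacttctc
Itgax: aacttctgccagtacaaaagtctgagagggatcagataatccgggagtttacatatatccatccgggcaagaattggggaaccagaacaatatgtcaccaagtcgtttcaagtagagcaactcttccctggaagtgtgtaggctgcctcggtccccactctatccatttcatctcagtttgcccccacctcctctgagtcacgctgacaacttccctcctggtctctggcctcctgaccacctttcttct
*Icam1* held the NF-κB-type match GGAAATTCC starting 153 bases before the gene start and the STAT-type match TTCCCGGAA starting at 42 bases. *Itgam* held GAGGAA starting at 84 bases and its reverse complement TTCCTC at 15 bases, and *Itgax* held none of these letters. Among the other windows, *Itgav* and *Itgb1* had matches to GAGGAA and *Itga4* had no match. A match describes the letters of the window, and binding was not measured here.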

How the data were processed

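Neutrophils of 4 pools were profiled by poly(A) RNA-Seq. Per the file headers and the study's methods, the authors made the tables with CLC Genomics Workbench. The authors deposited a whole-number count per gene without normalization and TPM, normalized for length and depth; deposited RPKM and CPM were not used. The submitters' processing notes name GRCm39. Whether counting used strand is not given in the sources used here. Groups followed the labels, with 1 library each, so no test was made. Members and gene lists were chosen with earlier results of these data known. Ratios used log2(TPM + 1) with a pseudocount of 1, genes with a mean TPM over 10 and a threshold of 0.5. Intervals are 95%, exact Poisson for levels and by propagated Poisson error for ratios and shares. Alternatives were a pseudocount of 0.1, CPM after TMM scaling (R 4.3.3 with edgeR 4.0.16), library-total CPM, centring on the median, a threshold of 1, a mean TPM over 1, TPM over 10 in both libraries, counts in place of TPM for shares, and shares without *Itgad*. Further genes were named by rule: from among other integrin, selectin and selectin ligand glycosylation genes over the minimum; of other adhesion lists the most abundant and the 2 with the largest ratio per comparison; per member the 2 nearest profiles; per marker list the most abundant and those at 0 counts. *Cd300a*, *Siglecf*, *Ly6g* and *Ptprc* checked the labels. *Sele*, *Thbs1*, *Lyve1* and *Ly6c2* were named after their values were seen. The calculation was tested in Python 3.11.15 on simulated Poisson counts without variation between pools. It thus checks the arithmetic and says nothing on such variation. Of the listed genes 1 is not reported here and was left out of its lists.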

Additional observations from a re-analysis of the deposited data

Results flagged for a closer look

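Of 45 adhesion genes named by rule, 8 had genotype ratios of opposite sign in the 2 fractions with both counting intervals clear of 0, and none of these differences was tested, since each group has 1 library. The log2 ratio of *Cd300a-/-* to WT cells in the SiglecF lo minus that in the SiglecF hi fraction was 0.11 for *Selplg*, from 0.06 and −0.04. The other 7 were below 0 in SiglecF lo and above 0 in SiglecF hi cells: the difference was −1.11 for *Selp*, −0.60 for *St3gal6*, −1.43 for *Podxl*, −2.46 for *Esam*, −2.20 for *Pecam1*, −0.71 for *Mcam* and −0.84 for *Mfge8*. The endothelial markers had medians of −1.26 and 0.30 in these comparisons, and of −0.77 in WT and 0.67 in *Cd300a-/-* cells between the fractions, or −1.30 and 0.06 after centring, and their part in the values of this paragraph was not tested. The SiglecF hi to SiglecF lo ratio had opposite signs in WT and *Cd300a-/-* cells for 4 of the 45 genes, also untested: WT minus *Cd300a-/-* was 0.57 for *Tpst2* (0.38 and −0.19), 0.52 for *Tln1* (0.22 and −0.30), −2.46 for *Esam* (−1.35 and 1.11) and −2.20 for *Pecam1* (−1.27 and 0.92). *Thbs1*, which was not among the 45, also had opposite signs before centring, with 785, 1183, 885 and 994 TPM. After centring, *Esam* and *Pecam1* kept opposite signs, whereas *Tpst2* and *Tln1* were below 0 in both genotypes. Centred values of opposite sign with both intervals clear of 0 were also found for *Itgav* (0.34 and −0.14), *Vav3* (0.44 and −0.17) and *Mfge8* (−0.42 and 0.34), and the interval of *Mcam* between genotypes in SiglecF hi cells then held 0. Among the 9 members, only *Selplg* met either condition before centring.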

How the results depend on the processing

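The falls of *Selplg* and *Itgal* and the rises of *Icam1* and *Itgax* between fractions, and the rises of *Itgam* and *Itgav* in *Cd300a-/-* SiglecF lo cells, stayed past 0.5 in the same direction in 5 settings. These were the main values, a pseudocount of 0.1, TMM-scaled CPM, library-total CPM and centring. Between genotypes in SiglecF lo cells the median of all genes lay between −0.06 and 0.008 in these settings. They could thus move the ratios of *Itgam* and *Itgav* little, and the counting interval of *Itgav* reaches below 0.5. The median of the 9 genes between fractions went to −0.25 (TMM-scaled CPM), 0.065 (library-total CPM) and −0.24 (centred) in WT and to −0.42, −0.047 and −0.45 in *Cd300a-/-* cells; its direction thus rests on the scaling. A threshold of 1 left 0 of the 9 genes between genotypes in SiglecF lo cells. Of all genes past 0.5, a mean TPM over 1, which tests more genes, gave 5178 and 1716 between genotypes in SiglecF lo and SiglecF hi cells and 7317 and 7619 between fractions in WT and *Cd300a-/-* cells, in place of 2367, 442, 3873 and 4212, and a threshold of 1 gave 611, 46, 1520 and 1975. TPM over 10 in both libraries gave 1516 between genotypes in SiglecF lo cells. Shares by counts, which weigh long transcripts more, were 50.5%, 57.5% and 53.7% for *Itgam* in WT SiglecF lo, *Cd300a-/-* SiglecF lo and WT SiglecF hi cells. In the order WT and *Cd300a-/-* SiglecF lo, WT and *Cd300a-/-* SiglecF hi, they were 40.2%, 34.5%, 22.2% and 20.8% for *Itgal* and 9.33%, 7.97%, 23.9% and 25.6% for *Itgax*. Leaving out *Itgad* moved no share beyond its counting interval. With 1 library per group, variation between pools is unknown, and counting error is largest for *Itgav*.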
